A study of Homo sapiens with 12 samples.

Results

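The Polycomb repressive complex genes were 10 genes chosen by their symbols: EZH1, EZH2, EED and SUZ12 of Polycomb repressive complex 2 (PRC2), and BMI1, RING1, RNF2, CBX2, CBX7 and CBX8 of Polycomb repressive complex 1 (PRC1). All 10 were found among the 36502 genes of the count table, and all 10 were among the 17262 genes that passed the filter on low counts. RNA was sequenced from HT1080, a human fibrosarcoma cell line, in 12 libraries, 2 for each of 6 groups. The VP16 clone carried m6A-Tracer-VP16, a protein that binds adenine-methylated DNA, joined to the viral transcription activator VP16. The GFP clone carried the m6A-Tracer with GFP and no VP16. In VP16_tracer_Dam and GFP_tracer_Dam, doxycycline was given for 3 days and then left out for 24 h to switch on the tracer, with 500 nM Shield1 added to induce Dam-LaminB1, a DNA adenine methyltransferase fused to the nuclear lamina protein lamin B1. VP16_tracer and GFP_tracer had the same 3 days with and 24 h without doxycycline but no Shield1, and VP16_uninduced and GFP_uninduced had doxycycline at 50 ng/ml for 4 days. Each tracer was carried by 1 clone, so clone and construct cannot be told apart. Tracer expression and doxycycline removal changed together and cannot be told apart either. Shield1 and Dam-LaminB1 likewise changed together, so differences given below for Dam-LaminB1 are those of both together. Separate cultures for the 2 libraries of a group are not stated in the labels; p-values therefore cover the spread between these libraries alone, which may be technical.

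Polycomb proteins keep genes silent by modifying histones. In PRC2 the catalytic subunit EZH2, or its relative EZH1, methylates lysine 27 of histone H3, and it does so only when held by EED and SUZ12. In PRC1 the ring finger proteins RING1 and RNF2 (RING1B) attach ubiquitin to histone H2A, each paired with a partner such as BMI1 (PCGF4). The chromobox proteins CBX2, CBX7 and CBX8 bind the methylated lysine and bring PRC1 to it, and a PRC1 holds 1 of them at a time. EZH2 is known to be high in dividing cells and EZH1 in resting cells.

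Library titles reused 6 index sequences, so the 12 libraries formed 2 sets of 6, samples 1 to 6 and samples 7 to 12, with 1 library of each group in each; they are called index set 1 and index set 2. Libraries held 18774905 to 24827396 counts. The first principal component (45.4% of the variance) separated 2 index set 1 libraries, GFP_tracer_Dam at -87.0 and GFP_tracer at -78.2. In these 2 libraries, in that order, 30 G1/S genes (genes of DNA replication and entry into S phase) summed to 1097 and 1716 CPM (counts scaled to library size), against 2724 to 3878 CPM in the other 10. The 10 ATF4 stress genes (DDIT3, ASNS and others) summed to 2104 and 2072 CPM in them, against 462.7 to 744.5 CPM elsewhere. LMNB1, the gene fused to Dam, stood at 29.5 and 36.9 CPM in them, against 121.7 to 202.5 CPM in the other 10. Of those 10, 3 had Shield1, and GFP_tracer at 36.9 CPM had none. Counts per gene do not separate RNA of the fusion from the cell's own LMNB1 RNA, so they do not report on Dam-LaminB1. The deposited labels were not checked against any gene that marks the tracer, so these 2 libraries are called by their labels throughout. Of 7 mesenchymal markers 6 were at 1 CPM or more in every library (vimentin at 1750 to 4210 CPM), while of 5 epithelial markers only CLDN4 (2.39 to 4.75 CPM) and of 5 blood markers only CD68 (117 to 337 CPM) were, and the defining markers CDH1, EPCAM, PTPRC and HBB stayed under 1 CPM.

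Per length, RING1 was the most abundant of the 10 genes and CBX7 by far the least. The scale here is CPM per kilobase of merged exons, from GENCODE 29, and each value is a median over 12 libraries. RING1 stood at 34.6, BMI1 at 24.1, SUZ12 at 16.7, EZH2 at 16.6, RNF2 at 8.88, EED at 5.49, EZH1 at 3.81, CBX8 at 3.55, CBX2 at 2.88 and CBX7 at 0.334. Most neighbours in this order stood in it in all 12 libraries, but SUZ12 exceeded EZH2 in only 5 of 12, EED exceeded EZH1 in 10, and EZH1 exceeded CBX8 in 9. The catalytic EZH2 was thus above its relative EZH1 in each library on this scale, with EZH2 at 11.6 to 20.2 and EZH1 at 3.37 to 6.24. BMI1 varied least, with a highest over lowest level of 1.23, and CBX2 most, with 8.04. The order of the genes depends on the lengths used, which ran from 1818 bases for RING1 to 7461 for CBX7. Reads were counted on GRCh37 and GENCODE 29 describes GRCh38, so the lengths may include exons that were not counted. By CPM without length, the medians of SUZ12 (109.1), BMI1 (103.4) and EZH2 (75.0) exceeded that of RING1 (62.9). On that scale EED (38.5) also exceeded RNF2 (36.2), and CBX7 (2.49) was still the lowest. Counts of BMI1 are uncertain because its gene model (chromosome 10, 22605381 to 22620413, GRCh37) overlaps the COMMD3 gene and the strand setting of the counting is not known. Counts of SUZ12 (chromosome 17, 30264056 to 30328064) may lose reads to a partial pseudogene copy.

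**Figure D1:**
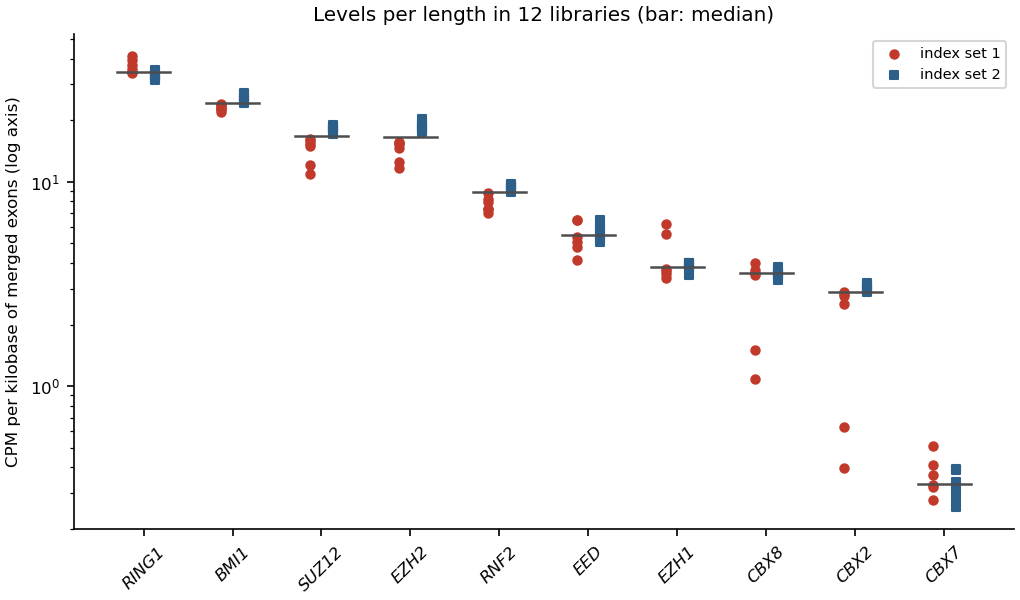
Level of each Polycomb gene in CPM per kilobase of merged exons (log axis), 1 point per library and a bar at the median of 12 libraries; index set 1 is left (circles) and index set 2 right (squares) for each gene. RING1 sits highest at a median of 34.6 and CBX7 lowest at 0.334, and 2 index set 1 points of CBX2 and of CBX8 lie far below the rest.

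E2F factors are known activators of G1/S genes and of EZH2, so promoters were searched for E2F words. RefSeq promoter windows (GRCh38.p14, 250 bases before to 50 after the start) were matched for 8 of the 10 genes. The words TTTCCCGC, TTTGGCGC, TTTCGCGC and TTTGCCGC were looked for on both strands, and 1164 of 35114 promoters (3.31%) held at least 1. Among the 8 genes EZH2 (in 1 of its 2 windows), SUZ12 and EZH1 held a word each. Those 3 windows are shown because they held a word, 5′ to 3′ each on the strand of its gene, with the word in capitals. The EZH2 window (chr7:148884242-148884541, minus strand) held TTTGGCGC from base 2 after the start. The SUZ12 window (chr17:31936757-31937056, plus strand) held TTTCCCGC from base -189, and the EZH1 window (chr17:42744991-42745290, minus strand) held TTTGCCGC, read on the opposite strand, from base -115.
EZH2: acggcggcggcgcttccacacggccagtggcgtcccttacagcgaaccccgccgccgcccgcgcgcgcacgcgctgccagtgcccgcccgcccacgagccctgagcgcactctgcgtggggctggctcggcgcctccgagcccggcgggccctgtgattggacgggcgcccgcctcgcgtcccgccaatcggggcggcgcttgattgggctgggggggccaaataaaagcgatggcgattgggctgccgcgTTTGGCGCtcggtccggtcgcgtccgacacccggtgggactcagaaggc
SUZ12: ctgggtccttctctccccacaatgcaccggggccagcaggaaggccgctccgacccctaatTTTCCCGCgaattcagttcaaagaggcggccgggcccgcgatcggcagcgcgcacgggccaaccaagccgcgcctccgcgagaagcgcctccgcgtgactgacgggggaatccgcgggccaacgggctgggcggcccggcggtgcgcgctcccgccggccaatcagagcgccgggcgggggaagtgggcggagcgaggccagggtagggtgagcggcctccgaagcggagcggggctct
EZH1: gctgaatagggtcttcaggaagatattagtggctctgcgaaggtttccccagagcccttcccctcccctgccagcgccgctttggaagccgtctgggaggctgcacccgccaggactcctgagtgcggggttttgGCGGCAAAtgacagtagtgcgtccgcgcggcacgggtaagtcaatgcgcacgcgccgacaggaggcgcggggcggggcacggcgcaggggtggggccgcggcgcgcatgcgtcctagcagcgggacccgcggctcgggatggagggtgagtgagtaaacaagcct
A word in a window is a description of its letters and does not show that a factor binds there. BMI1, RING1, RNF2, EED and CBX7 held none of the 4 words in their windows, and CBX2 and CBX8 were not matched.

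In the GFP clone, doxycycline removal and tracer expression together, without Shield1, were compared with the uninduced state. The clearest values among the 10 genes were those of CBX2 and CBX8 in index set 1. CBX2 (chromosome 17, 77751931 to 77761782, GRCh37) stood at 2.26 CPM in GFP_tracer and at 16.3 CPM in GFP_uninduced of index set 1, and at 18.2 CPM in GFP_tracer and 16.8 CPM in GFP_uninduced of index set 2. CBX8, which lies beside it (77765931 to 77775482), stood at 4.51 CPM in GFP_tracer and 14.8 CPM in GFP_uninduced of index set 1, and at 14.5 CPM in GFP_tracer and 14.8 CPM in GFP_uninduced of index set 2. Both genes were thus low in the index set 1 library of GFP_tracer and near the uninduced level in its replicate. In CBX2 the 46 counts of that library against 368 in GFP_uninduced made a level 7.24-fold lower (5.32 to 10.1, an exact binomial interval at 95% that covers counting error alone). In CBX8 the 92 counts against 334 made a level 3.28-fold lower, with an interval from 2.60 to 4.18. On the log2 CPM scale the change within index set 1 was -2.81 for CBX2, the 7th lowest of 17262 genes tested, and -1.70 for CBX8, with 0.736% of genes at or below it. These ranks compare 1 library with 1 library and carry no test.

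Of the 10 genes, 2 were at least 2-fold lower in GFP_tracer within index set 1, where 4.18% of all genes tested were, and 0 were within index set 2, where 1.04% were. None was at least 2-fold higher, against 6.49% of genes tested in index set 1 and 0.817% in index set 2. EED and SUZ12 were also lower in the index set 1 library, with EED at -0.44 and SUZ12 at -0.35 on the log2 scale, against 0.07 and 0.10 in index set 2. The 8 accessory PRC2 genes lay on both sides of 0 in index set 1, between -0.48 for RBBP4 and 0.56 for JARID2. EZH2 differed little, at 69.9 CPM in GFP_tracer and 68.8 CPM in GFP_uninduced of index set 1, and EZH1 stood at 38.9 CPM in GFP_tracer and 26.1 CPM in GFP_uninduced. BMI1 and RNF2 changed by 0.08 and -0.00 in index set 1, CBX7 by -0.02 and RING1 by 0.20. The library that is low in CBX2 and CBX8 was also low in G1/S genes (1716 CPM summed, against 3628 CPM in GFP_uninduced of the same set) and high in the ATF4 genes (2072 against 462.7 CPM); the part of either in the CBX values was not tested. In bulk RNA, fewer cells expressing a gene and less RNA per cell cannot be told apart.

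**Figure D2:**
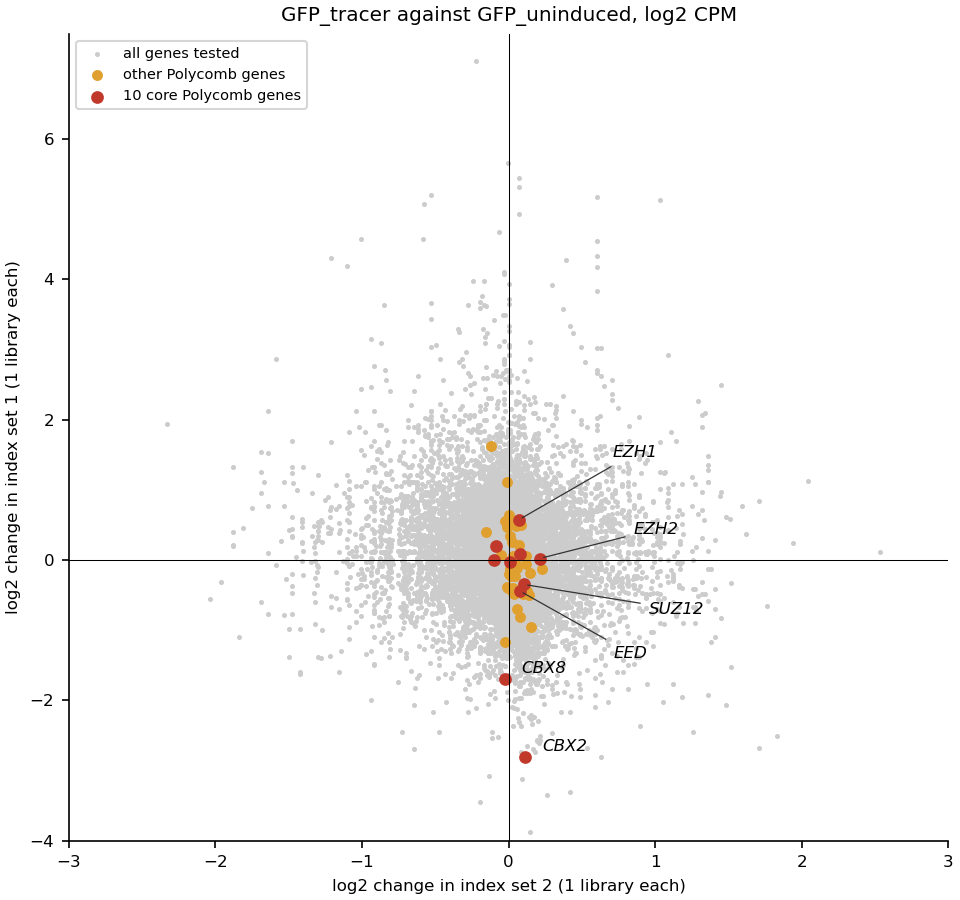
Log2 change in CPM of GFP_tracer against GFP_uninduced in index set 2 (x axis) and in index set 1 (y axis), 1 library in each; grey points are all 17262 genes tested (1 lies outside the axes), orange points other Polycomb genes and red points the 10 core genes. CBX2 (-2.81 against 0.11) and CBX8 (-1.70 against -0.02) lie far below 0 in index set 1 and near 0 in index set 2.

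Over both sets none of the 10 genes passed. With edgeR's quasi-likelihood test, 0 of 10 genes and 0 of 17262 (0%) had a Benjamini-Hochberg adjusted p under 0.05 in GFP_tracer against GFP_uninduced, and 0 of 10 had an unadjusted p under 0.05, with edgeR or with DESeq2, which also called 0 genes. CBX2 averaged 10.2 ± 11.2 CPM in GFP_tracer and 16.6 ± 0.31 CPM in GFP_uninduced (SD, n = 2 each), and its fitted log2 difference was -0.70 ± 0.85 (SE). CBX8 averaged 9.52 ± 7.08 CPM in GFP_tracer and 14.8 ± 0.03 CPM in GFP_uninduced (SD, n = 2 each), a difference of -0.63 ± 0.49 (SE). The difference of EZH1 was 0.34 ± 0.22 and that of EED -0.17 ± 0.20 (SE), and the other 6 genes lay between -0.09 and 0.13. With 1 library left out, CBX8 ranged from -1.74 to -0.02 and EZH1 from 0.08 to 0.54. The median over the 10 genes was -0.03, against 0.01 over all genes tested. Without the 2 libraries that stand apart, the difference was 0.14 for CBX2, -0.02 for CBX8 and 0.09 for EZH1, with 1 GFP_tracer library left. Over all 12 libraries with the index sets as a block, CBX2 differed by -0.997 ± 0.73 and CBX8 by -0.73 ± 0.43 (SE), and neither was called. Where no gene of the whole table was called, the absence of a call does not show that a gene was unchanged.

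Among the other Polycomb genes, 38 were listed as accessory PRC2 subunits, other PRC1 subunits, and H3K27 demethylases with the PR-DUB subunits that remove ubiquitin from H2A; 37 were matched and 36 tested. None of the 36 was called in GFP_tracer against GFP_uninduced with edgeR. In the index set 1 library KDM6B, a demethylase of the lysine that PRC2 methylates, stood at 85.0 CPM against 27.6 CPM in GFP_uninduced, and RYBP, a subunit of PRC1 forms without a chromobox protein, at 81.9 against 37.9 CPM. In index set 2 both were near the uninduced level, with KDM6B at 25.8 CPM in GFP_tracer and 28.1 CPM in GFP_uninduced and RYBP at 37.2 and 37.4 CPM. BCORL1, a relative of the PRC1 subunit BCOR, stood at 13.5 CPM in GFP_tracer and 30.4 CPM in GFP_uninduced of index set 1, and at 37.7 and 38.4 CPM in those groups of index set 2. The chromobox gene CBX6 stood at 75.6 CPM in GFP_tracer and 122.4 CPM in GFP_uninduced of index set 1. KDM6B, BCORL1 and CBX6 were chosen after their values were seen. By the rule for named genes, RYBP (0.66 ± 0.40) and the demethylase KDM6A (0.28 ± 0.17) had the smallest p, with adjusted p of 1 in edgeR.

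Adding Shield1 to induce Dam-LaminB1 in the GFP clone left the same split between the index sets. CBX2 stood at 3.58 CPM in GFP_tracer_Dam of index set 1 (88 counts) and at 17.8 CPM in that of index set 2, and CBX8 at 6.27 CPM (154 counts) and 13.7 CPM. Both index set 1 values are low among all 12 libraries, where the 10 that do not stand apart held 14.3 to 18.2 CPM of CBX2 and 13.7 to 16.7 CPM of CBX8. Against GFP_uninduced of the same set CBX2 was 4.56-fold lower (interval 3.60 to 5.82) and CBX8 2.36-fold lower (1.95 to 2.88); against the replicate in index set 2 the ratios were 4.98 (3.95 to 6.34) and 2.19 (1.80 to 2.67). Of all genes tested, 5.98% were at least 2-fold lower than in GFP_uninduced within index set 1, with 2 of the 10 among them. Within index set 2 it was 1.16%, and 0 of the 10. None of the 10 was at least 2-fold higher in either set, against 8.53% of genes in index set 1 and 0.672% in index set 2.

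**Figure D3:**
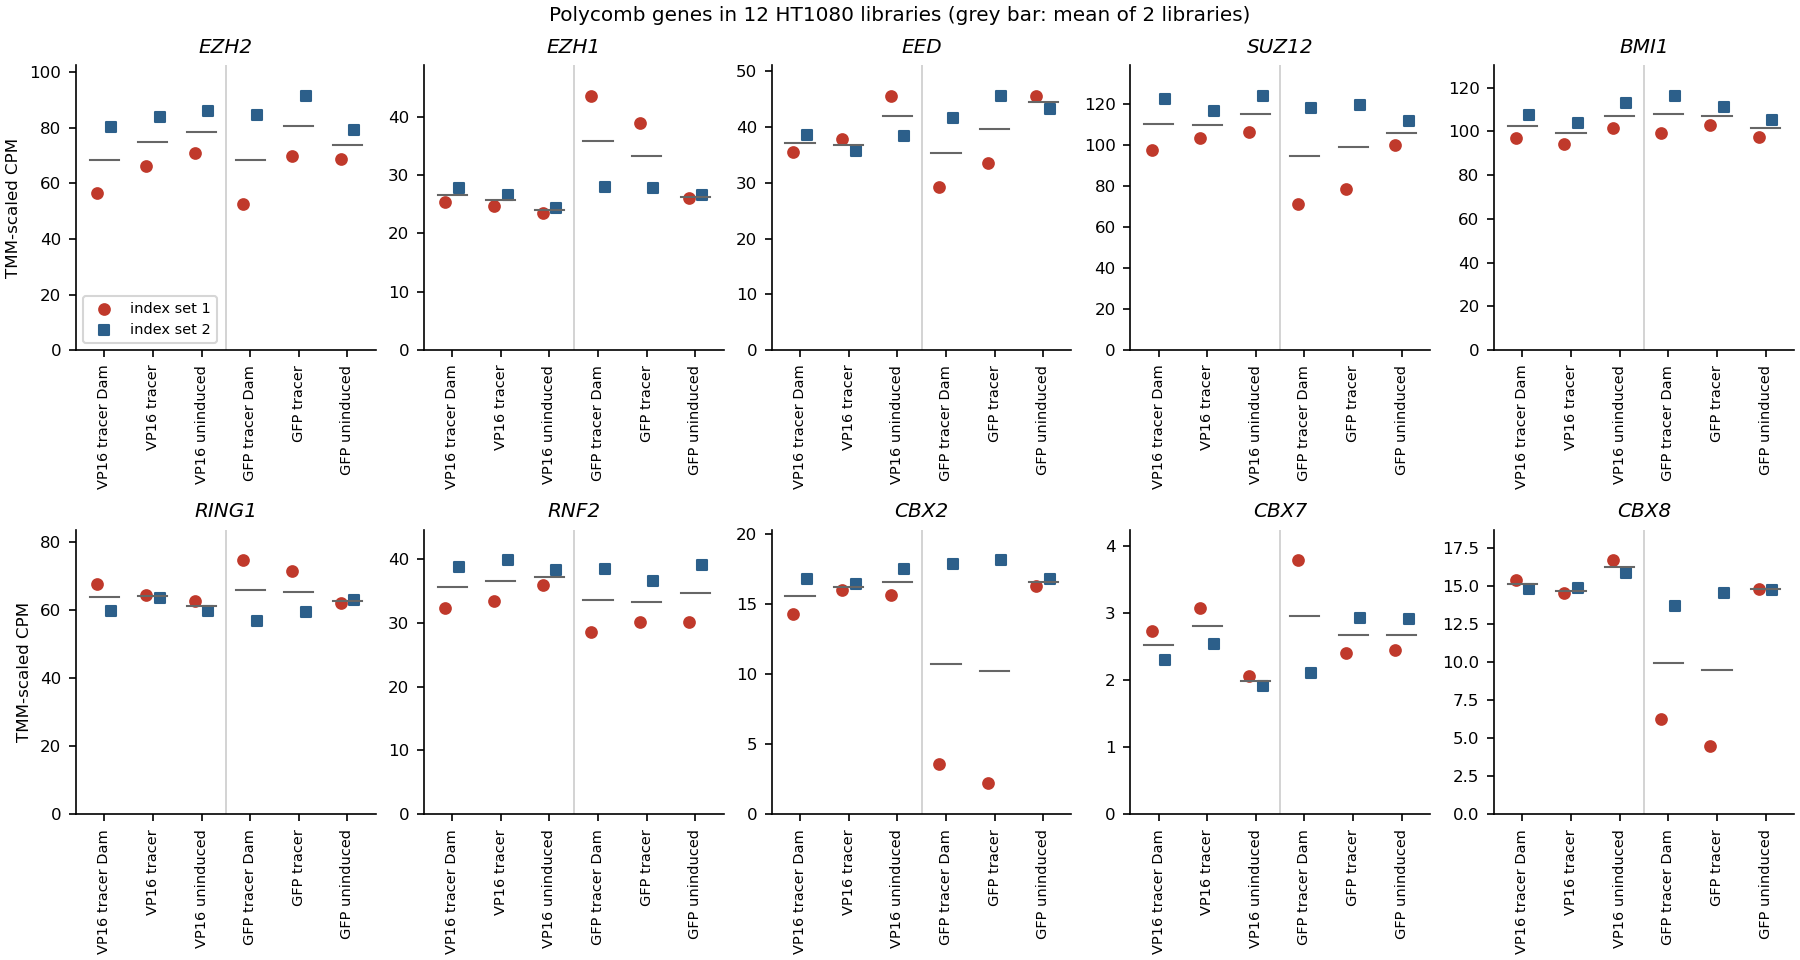
TMM-scaled CPM of each of the 10 genes (y axis, from 0) by group (x axis), VP16 groups left of the grey line and GFP groups right of it, circles for index set 1 and squares for index set 2, grey bars for the mean of the 2 libraries. CBX2 and CBX8 are low in the index set 1 libraries of GFP_tracer_Dam and GFP_tracer (3.58 and 2.26 CPM for CBX2), where EZH1 is high (43.6 and 38.9 CPM).

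Among the PRC2 genes, EZH1 was highest of all 12 libraries in GFP_tracer_Dam of index set 1, at 43.6 CPM against 26.1 CPM in GFP_uninduced of that set, where it stood at 27.996 against 26.5 CPM in index set 2. EED, SUZ12 and EZH2 each had their lowest value of the 12 libraries in GFP_tracer_Dam of index set 1. EED stood there at 29.2 CPM, SUZ12 at 71.2 CPM and EZH2 at 52.5 CPM, against 45.6, 100.3 and 68.8 CPM in GFP_uninduced of the same set. JARID2, an accessory subunit that helps bring PRC2 to chromatin, stood at 103.1 CPM in that library, at 59.9 CPM in GFP_tracer and at 40.6 CPM in GFP_uninduced of index set 1, and at 49.7, 48.3 and 49.2 CPM in the same groups of index set 2. The G1/S genes summed to 1097 CPM in this GFP_tracer_Dam library and the ATF4 genes to 2104 CPM; their part in these values was not tested.

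None of these differences passed over both sets. With edgeR 0 of the 10 genes and 0 of all genes tested (0%) were called in GFP_tracer_Dam against GFP_uninduced, and likewise in GFP_tracer_Dam against GFP_tracer (0%); none of the 10 had an unadjusted p under 0.05 in either with edgeR or DESeq2. Against GFP_uninduced the log2 differences were 0.44 ± 0.22 for EZH1, -0.33 ± 0.20 for EED, -0.57 ± 0.49 for CBX8 and -0.63 ± 0.85 for CBX2 (SE). Without the 2 libraries that stand apart, they were 0.10 for EZH1, -0.08 for EED, -0.10 for CBX8 and 0.12 for CBX2. Against GFP_tracer, EZH2 had the largest difference of the 10 genes, at -0.24 ± 0.27 (SE). With the index sets as a block it was -0.26 ± 0.12 (SE), and EZH2 was called in neither fit. EZH2 stood at 52.5 CPM in GFP_tracer_Dam and 69.9 CPM in GFP_tracer of index set 1, and at 84.4 and 91.5 CPM in index set 2. JARID2 had the smallest p of the other Polycomb genes, with 0.50 ± 0.30 against GFP_tracer and 0.77 ± 0.30 against GFP_uninduced (SE, edgeR adjusted p = 1 and 0.93), and without GFP_tracer_Dam replicate 1 the difference from GFP_tracer was -0.10. BCOR (0.21 ± 0.23) was at -0.10 without GFP_tracer replicate 1 and at -0.02 without GFP_tracer_Dam replicate 2, and KDM6A differed from GFP_uninduced by 0.32 ± 0.17.

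**Figure D4:**
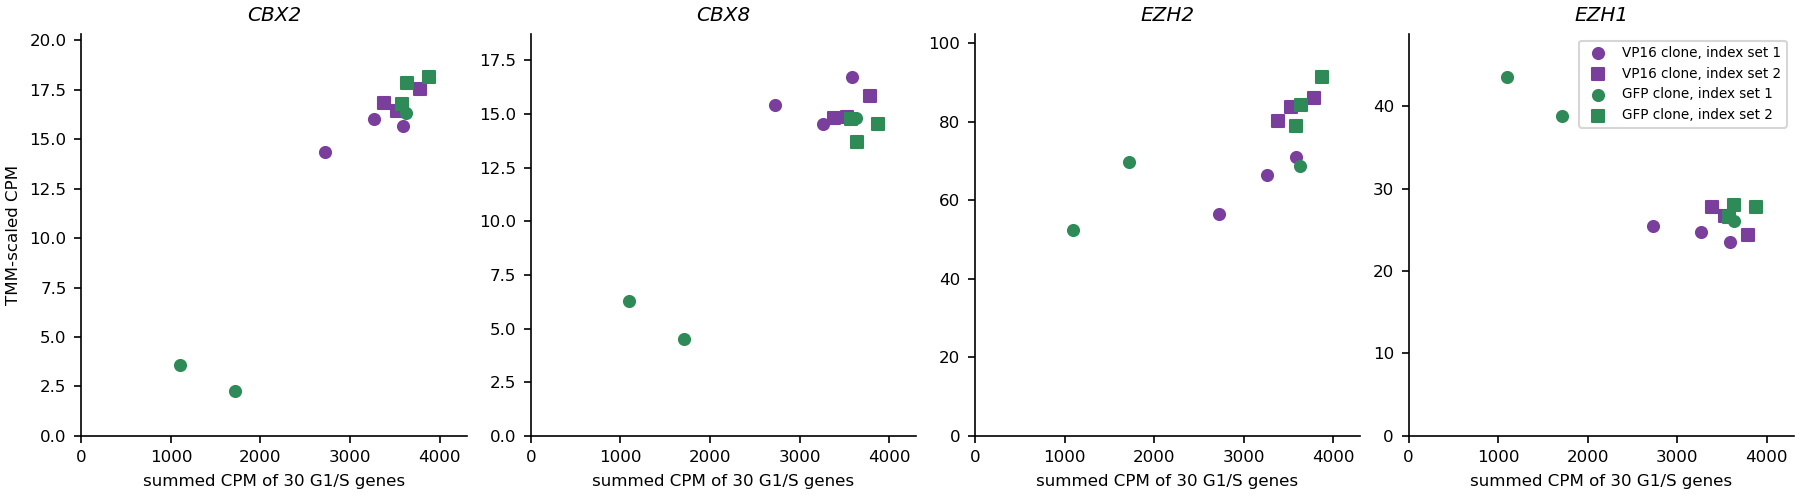
TMM-scaled CPM of CBX2, CBX8, EZH2 and EZH1 (y axes, from 0) against the summed CPM of 30 G1/S genes (x axis), 1 point per library, VP16 clone purple and GFP clone green. The 2 GFP libraries of index set 1 with the lowest G1/S sums (1097 and 1716 CPM) have the lowest CBX2 and CBX8 and the highest EZH1, whereas EZH2 of the second of them, 69.9 CPM, lies among the other index set 1 libraries.

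None of the 10 genes passed between states of the VP16 clone. CBX2 stood at 14.3 and 16.8 CPM in VP16_tracer_Dam, at 15.999 and 16.4 CPM in VP16_tracer and at 15.6 and 17.5 CPM in VP16_uninduced, in index sets 1 and 2. CBX8 stood at 15.4 and 14.8 CPM in VP16_tracer_Dam, at 14.5 and 14.9 CPM in VP16_tracer and at 16.7 and 15.9 CPM in VP16_uninduced. Neither gene was low in any VP16 library. CBX7 had the largest difference of the 10, at 3.07 and 2.54 CPM in VP16_tracer against 2.06 and 1.91 CPM in VP16_uninduced, a log2 difference of 0.49 ± 0.31 (SE). These are 65 and 57 counts against 38 and 42. The 95% exact Poisson intervals in index set 1 were 2.37 to 3.91 CPM in VP16_tracer and 1.46 to 2.83 CPM in VP16_uninduced. In index set 2 they were 1.92 to 3.29 CPM and 1.38 to 2.59 CPM. The intervals overlapped within each set, which is not a test of the difference.

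EED averaged 36.7 ± 1.53 CPM in VP16_tracer and 42.0 ± 5.07 CPM in VP16_uninduced (SD, n = 2 each). By set it stood at 37.8 and 45.6 CPM in those groups of index set 1 and at 35.6 and 38.5 CPM in index set 2. It was thus lower in VP16_tracer in both sets. The log2 difference of EED was -0.20 ± 0.20, or -0.20 ± 0.19 with the index sets as a block (SE), and it was called in neither fit. EZH2 stood at 56.6 CPM in VP16_tracer_Dam and 66.4 CPM in VP16_tracer of index set 1. In index set 2 it stood at 80.2 and 83.7 CPM in those groups. EZH2 was thus lower with Shield1 and Dam-LaminB1 in both sets. Its log2 difference was -0.13 ± 0.27, or -0.14 ± 0.12 when index sets were blocked (SE), with an edgeR adjusted p of 1 in both. With edgeR 0 of 10 genes were called in VP16_tracer against VP16_uninduced, in VP16_tracer_Dam against VP16_tracer and in VP16_tracer_Dam against VP16_uninduced, as were 0 of all genes tested (0% each), and none of the 10 had an unadjusted p under 0.05 with edgeR or DESeq2. The differences of the 10 genes lay between -0.20 and 0.49, between -0.15 and 0.05, and between -0.20 and 0.34 in these 3 comparisons. Among the other Polycomb genes with the smallest p, the PRC2 partner PHF1 differed by 0.14 ± 0.12 and the DNA-binding PRC1 subunit E2F6 by -0.14 ± 0.13 in VP16_tracer against VP16_uninduced. In VP16_tracer_Dam, the PRC2 subunit AEBP2 differed from VP16_tracer by -0.18 ± 0.14, SCML2 from VP16_tracer by -0.21 ± 0.22 and from VP16_uninduced by -0.29 ± 0.22, and the polyhomeotic gene PHC1 from VP16_uninduced by 0.29 ± 0.22 (SE); edgeR's adjusted p was 1 for each.

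The difference between the clones in the response was tested as an interaction. In the response to the tracer 0 of 10 genes and 0% of all genes tested were called by edgeR, and in the response to Dam-LaminB1 again 0 of 10 and 0%, with none of the 10 at an unadjusted p under 0.05 by edgeR or DESeq2. The VP16 response minus the GFP response to the tracer was 0.66 ± 1.196 for CBX2, 0.49 ± 0.69 for CBX8, 0.50 ± 0.43 for CBX7 and -0.24 ± 0.32 for EZH1 (SE, log2). For the response to Dam-LaminB1 the 10 values lay between -0.30 for CBX7 and 0.17 for EED. RYBP (-0.65 ± 0.56) and PCGF1 (-0.30 ± 0.28), both of PRC1 forms without a chromobox protein, had the smallest p of the other Polycomb genes in the first, and JARID2 (-0.42 ± 0.42) and SCMH1 (-0.25 ± 0.23) in the second. Without the 2 libraries that stand apart, RYBP was at 0.03, PCGF1 at 0.01 and JARID2 at 0.03.

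The VP16 clone was compared with the GFP clone over all 3 states, 6 libraries each. Of the 10 core genes 0 passed, and of all genes tested 7.64% did (in the VP16 clone 5.01% were lower and 2.62% higher). A set of 10 genes is too small to tell 0 calls from that share. EZH1 stood at 23.6, 25.1 and 27.8 CPM (lowest, median and highest) in the VP16 clone and at 26.1, 27.9 and 43.6 CPM in the GFP clone, with overlap. Its log2 difference was -0.31 ± 0.13 (SE, edgeR unadjusted p = 0.04, adjusted p = 0.19), and it was the only one of the 10 with an unadjusted p under 0.05; without GFP_tracer_Dam replicate 2 its adjusted p was 0.039, and without the 2 libraries that stand apart its difference was -0.12 (adjusted p = 0.29). With DESeq2 1 of the 10 had an unadjusted p under 0.05. CBX8 (0.45 ± 0.28) and CBX2 (0.40 ± 0.49) had the largest positive differences, with lowest values of 14.5 and 14.3 CPM in the VP16 clone and of 4.51 and 2.26 CPM in the GFP clone. Without the 2 libraries that stand apart, CBX8 was at 0.08, CBX2 at -0.13 and SUZ12 at -0.05 where it had been 0.16 ± 0.16 (SE). EZH2 averaged 74.0 ± 11.4 CPM in the VP16 clone and 74.3 ± 13.7 CPM in the GFP clone (SD, n = 6 each), with a log2 difference of -0.01 ± 0.16 (SE), smaller than the spread within each clone.

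When the index sets were fitted as a block, 0 of the 10 genes passed between the clones, where 20.9% of all genes tested did. With the block and without the 2 libraries that stand apart, a fit chosen after seeing the data, EED alone of the 10 was lower in the VP16 clone, by -0.23 ± 0.06 (SE, edgeR adjusted p = 0.0061), where 33.3% of genes passed. EED ranged from 35.6 to 45.6 CPM in the VP16 clone, with a median of 38.1 CPM, and in the 4 GFP libraries of that fit it stood at 41.7, 45.6, 45.6 and 43.3 CPM. Among the 36 other Polycomb genes 0 passed without the block, and 2 were higher and 3 lower with it. PCGF6, the ring finger partner of a PRC1 form that also holds MGA, stood at 22.2 to 26.6 CPM in the VP16 clone and 11.0 to 20.8 CPM in the GFP clone, with no overlap (blocked log2 difference 0.52 ± 0.14 SE, edgeR adjusted p = 0.03). MGA itself stood at 49.2 to 52.6 CPM in the VP16 clone and 67.0 to 70.1 CPM in the GFP clone of index set 1, and at 76.5 to 77.5 and 94.998 to 100.6 CPM in index set 2 (-0.40 ± 0.05 SE with the block, edgeR adjusted p = 0.0015). SCMH1, a sex comb on midleg relative, was at 47.9 to 59.98 CPM in the VP16 clone and 62.6 to 88.5 CPM in the GFP clone (blocked -0.35 ± 0.09 SE, edgeR adjusted p = 0.031). The other 2 were BCOR, higher (blocked 0.28 ± 0.07 SE), and ASXL1, lower (blocked -0.20 ± 0.05 SE), and MGA, BCOR and ASXL1 are named here after their values were seen. Non-overlap between the clones in either direction held for 10.7% of all genes tested.

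Genes of the 10 passed the test over all 12 libraries only between the index sets, which the design does not name as a condition. EZH2, SUZ12, RNF2 and BMI1 were lower in index set 1, with no overlap between the 6 libraries of each set and the same sign in 6 of 6 groups. EZH2 stood at 52.5, 67.6 and 71.0 CPM (lowest, median, highest) in index set 1 and at 79.0, 84.1 and 91.5 CPM in index set 2, and its log2 difference was -0.40 ± 0.07 (SE; adjusted p = 0.0057 in edgeR). SUZ12 stood at 71.2, 99.1 and 106.5 CPM in index set 1 and at 111.7, 119.1 and 124.2 CPM in index set 2 (-0.37 ± 0.09 SE, edgeR adjusted p = 0.019). So EZH2 and SUZ12 were lower in every library of index set 1 than in any of index set 2. The PRC2 genes EED and EZH1 overlapped between the sets.

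RNF2, a catalytic subunit of PRC1, stood at 28.6, 31.2 and 35.9 CPM in index set 1 and at 36.4, 38.5 and 39.8 CPM in index set 2 (-0.28 ± 0.06 SE, edgeR adjusted p = 0.013). BMI1, its ring finger partner, stood at 94.3, 98.3 and 102.8 CPM in index set 1 and at 103.9, 109.4 and 116.2 CPM in index set 2, a small difference (-0.15 ± 0.04 SE, edgeR adjusted p = 0.034). Of the 10 genes 4 were called, all lower, where 28.2% of all genes tested were called and 12.6% were called lower (15.6% higher). CBX2 was also lower in index set 1 without overlap (2.26, 15.0 and 16.3 CPM, against 16.4, 17.2 and 18.2 CPM in index set 2) but was not called (-0.85 ± 0.43 SE, adjusted p = 0.17). Non-overlap with lower values in index set 1 held for 5 of the 10 genes and for 7.22% of all genes tested; with higher values it held for 0 of the 10 and for 7.35%. The other 5 overlapped: RING1 was higher in index set 1 in 5 of 6 groups (0.15 ± 0.07 SE, adjusted p = 0.13), and EZH1, EED, CBX7 and CBX8 had adjusted p from 0.24 to 0.49 in edgeR.

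**Figure D5:**
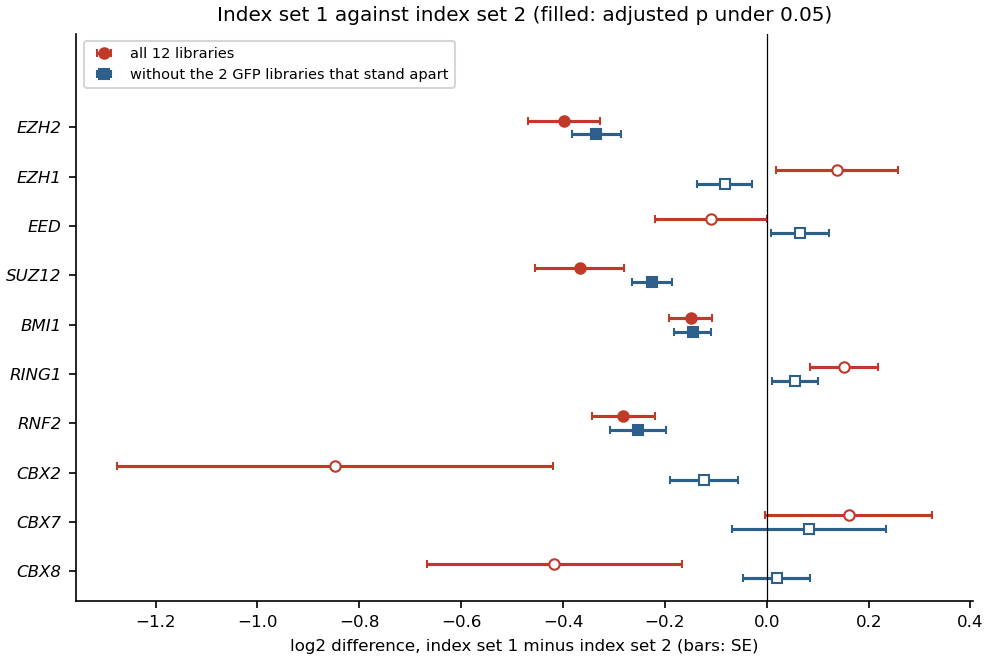
Log2 difference of index set 1 minus index set 2 (x axis) for each of the 10 genes with bars of 1 SE, red circles for all 12 libraries and blue squares without the 2 GFP libraries that stand apart; filled symbols have an edgeR adjusted p under 0.05. EZH2, SUZ12, BMI1 and RNF2 are filled in both fits, and CBX2 lies at -0.85 with all libraries and -0.12 without the 2.

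Without the 2 GFP libraries that stand apart the same 4 genes were called, with smaller differences for SUZ12 and EZH2. EZH2 differed by -0.33 ± 0.05 (SE, edgeR adjusted p = 7.3e-05), SUZ12 by -0.22 ± 0.04 (0.0004), RNF2 by -0.25 ± 0.06 (0.0021) and BMI1 by -0.15 ± 0.04 (0.0051). In that fit 39.6% of 17558 genes were called and 20.3% were called lower. CBX2 was at -0.12 ± 0.07 and CBX8 at 0.02 ± 0.07 (SE), so the CBX2 and CBX8 values of the full comparison moved with those 2 libraries. RING1 was at 0.06 ± 0.05 (SE), where it had been 0.15 ± 0.07 with all 12 libraries. It was highest in those 2 libraries, at 74.7 CPM in GFP_tracer_Dam and 71.4 CPM in GFP_tracer, against 56.9 to 67.8 CPM in the other 10. The call of BMI1 ended when any 1 of 10 libraries was left out, and without a filter on low counts (adjusted p = 0.11); that of SUZ12 ended without GFP_tracer replicate 1 or 2 (adjusted p = 0.0527 and 0.0513). Over all 12 libraries, the 30 G1/S genes had a median log2 difference of -0.58 between the index sets, and 5 were called. Without the 2 libraries, their summed level was 2724 to 3628 CPM in index set 1 and 3383 to 3878 CPM in index set 2; their part in the EZH2 and SUZ12 values was not tested.

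Of the 36 other Polycomb genes 10 (27.8%) were lower in index set 1 and 0 higher, where 12.6% of all genes tested were called lower and 15.6% higher. MGA (-0.56 ± 0.05 SE, edgeR adjusted p = 0.00041) and ASXL2, a PR-DUB subunit (-0.48 ± 0.04 SE, adjusted p = 0.00047), had the smallest p. ASXL2 ranged from 98.3 to 108.1 CPM in index set 1 and from 140.4 to 149.2 CPM in index set 2. LCOR (-0.38), whose locus encodes a PRC2 accessory protein, the polyhomeotic gene PHC3 (-0.34), BCOR (-0.32) and USP7, a deubiquitinase found with PRC1 (-0.24), followed. The remaining 4 were RBBP4 (-0.33) and RBBP7 (-0.26), histone binding subunits of PRC2, AUTS2 (-0.59) and ASXL1 (-0.20). AUTS2 stood at 22.8 and 20.9 CPM in the 2 libraries that stand apart, at 39.2 to 48.6 CPM in the other 4 of index set 1 and at 44.6 to 57.2 CPM in index set 2. Over the 36 genes the median was -0.16, over the 10 core genes -0.22 and over all genes tested 0.01.

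Genes whose log2 CPM ran most like that of a called Polycomb gene over the 12 libraries were named by Pearson's r, as a description; all points share the index sets and the 2 libraries that stand apart. For EZH2 they were DCLRE1A (r = 0.982), TDRD3 (0.975), EPB41L2 (0.970), XPO1 (0.969) and POLA1 (0.968). For SUZ12 they were ANP32E (0.995), SRSF1, NUF2, HNRNPH1 and ZNF37BP (0.990). For RNF2 they were REV1 (0.976), C1orf9, AHI1, INVS and INPP5F (0.967), and for BMI1 GORAB (0.936), CCAR1, MSL3, ZNF33A and AC006159.5 (0.913).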

How the data were processed

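RNA was measured in 12 libraries of HT1080 cells. RNA was isolated with Trizol and TruSeq RNA kits (Illumina) made the libraries, per the labels' protocols; per the submitters' processing notes, TopHat 1.4.0 with Bowtie 0.12.7, HTSeq and GRCh37 were used, and whether HTSeq used strand is not given in the sources used here. In the deposited table, raw counts stand as whole numbers for each of 36502 Ensembl genes, of which 59 carried no annotation.

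From these counts, genes were kept by filterByExpr (17262), scaled by TMM and fitted with edgeR 4.0.16 (R 4.3.3): quasi-likelihood, each group with its own coefficient, all 12 libraries together (6 residual degrees of freedom), robust dispersions and Benjamini-Hochberg adjustment over all genes tested at 0.05. The index-set comparison added the index set as a term. The SE is the absolute log2 difference divided by the square root of F, and 2 was the prior count for log2 CPM. Within-set changes compare 1 library with 1 library. A 2-fold change was the limit for counting these.

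The numbers of the replicates pair the libraries: deviations from group means correlated within an index set from 0.415 to 0.858 over 15 pairs of groups. State, clone and interaction values come from the fit without this pairing, unless a block is named. Replicates were no duplicates (chi-square per degree of freedom 19.6 to 126). Exact intervals are at 95% and cover counting error only. The members and gene lists were chosen with earlier results of these data known. Named were all 10 members; other Polycomb genes by adjusted p, up to 6 per direction, and otherwise the 2 with the smallest p; the 5 genes most alike to each called member and EZH2; and up to 3 examples of other lists. Alternatives were RLE factors, total counts only, DESeq2 1.42.0, other filters, only the groups compared, the index-set block, and leaving out libraries; the procedure was tested on simulated data.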

Additional observations from a re-analysis of the deposited data

How the results depend on the processing

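Counts of called members were 0 in the 8 state and interaction comparisons under every setting run, and 4 between index sets, or 3 without the filter on low counts. With the index set as a replicate block, no member was called in the clone comparison (0) and no call of a member changed; PCGF6 (0.52) and SCMH1 (-0.35) passed. Over all genes the clone comparison called 1318 genes, 3609 with the block, 2092 with DESeq2, 5855 with the block and without the 2 GFP libraries that stand apart, and 543 to 2221 with 1 library left out. That last pair of changes called 1 member (EED) between the clones, and VP16_tracer_Dam against VP16_uninduced then called 56 genes, none of them a member. Without 1 library, 0 to 1 members were called between the clones and 2 to 4 between the index sets.

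Some signs turned. Without the 2 GFP libraries the values were -0.0511 for SUZ12 and -0.134 for CBX2 between the clones, 0.14 for CBX2 and -0.00914 for RYBP in GFP_tracer against GFP_uninduced, 0.116 for CBX2 in GFP_tracer_Dam against GFP_uninduced, 0.0304 for RYBP and 0.00695 for PCGF1 in the difference between clones for the tracer, 0.0306 for JARID2 in that for Dam-LaminB1, and -0.0829 for EZH1 and 0.02 for CBX8 between index sets. With the block as well they were -0.0942 for CBX2 between the clones, 0.0795 for CBX2 and -0.061 for RYBP in GFP_tracer, 0.0558 for CBX2 in GFP_tracer_Dam, 0.0812 for RYBP and 0.0354 for JARID2 in the differences. With 1 library left out, values ranged from -2.9 to 0.136 for CBX2 and from -0.0134 to 1.09 for RYBP in GFP_tracer against GFP_uninduced, from -0.101 to 0.913 for JARID2 and from -0.0957 to 0.604 for BCOR in GFP_tracer_Dam against GFP_tracer, from -2.24 to 0.117 for CBX2 in GFP_tracer_Dam against GFP_uninduced, from -1.07 to 0.0226 for RYBP and from -0.839 to 0.175 for JARID2 in the differences between clones. The cause of each was not tested. CBX7 had 38 to 93 counts per library.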
